A study of Rattus norvegicus with 21 samples.

Results

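The neurofilament and neuronal cytoskeleton genes described here are Nefl, Nefm, Nefh, Ina, Map2, Mapt, Gap43, Stmn2 and Dcx, chosen by symbol. All 9 are among the 16245 symbols of the deposited expression table. Their levels were read in 21 single hippocampal neurons, each recorded with a patch electrode, aspirated into it and sequenced on its own. The study asks how factors released by oligodendrocytes, the myelinating glia of the brain, bear on GABAergic neurons, the inhibitory cells. All neurons came from VGAT-Venus transgenic Wistar rats, whose inhibitory cells fluoresce, were taken at embryonic day 18 and were kept for 17 days in vitro. The groups were 5 pyramidal neurons, the excitatory cells, from cultures that kept their glia; 5 GABAergic neurons from cultures purified by an antimitotic treatment and given oligodendrocyte conditioned medium (OCM) from day 3; 5 GABAergic neurons from purified cultures without it; and, from cultures with glia, 6 GABAergic neurons. The antimitotic agents (FdU and U, 5 µM) were added 24 h after dissection and removed after 36 h, and the conditioned medium came from oligodendrocytes of rat cortex taken at postnatal day 2. Cultures with glia received no antimitotic agent, so its action and the absence of glia cannot be told apart.

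Neurofilaments are the intermediate filaments of neurons: light (Nefl), medium (Nefm) and heavy (Nefh) chains assemble with alpha-internexin (Ina) into polymers that fill axons and set their calibre. Microtubules are the other long filaments of neurites, and they are bound by MAP2, found mainly in dendrites, by tau (Mapt), found mainly in axons, and by doublecortin (Dcx), a protein of young and migrating neurons. GAP-43 is a membrane protein of growing axon tips, and stathmin-2 (Stmn2) promotes microtubule turnover there.

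No label ties a cell to an animal or a culture, so a group stands for 1 sample. No p-value or standard error is therefore given, and an SD or range shows only how cells within a group vary. Values are normalized counts, reads per gene divided by 1 factor per cell. Depth ran from 1817671 to 25160911 reads per cell, and where a gene is at 0 a limit of 3 reads corresponds to a normalized count of 0.909 to 17.7, depending on the cell. Such limits cover counting error only. Over all genes, including those without a symbol, 2540 to 5325 were above 0 in a pyramidal cell, 3992 to 6331 in an OCM-treated cell, 2573 to 4065 in a purified cell and 3760 to 8652 in a glia-cultured GABAergic cell. Sample titles open with S, P or ech, which the labels do not explain. OCM-treated cells are all titled S, as are 4 purified cells. Only the glia-cultured GABAergic group holds cells titled ech, 2 of them.

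The defining markers of both neuron types were read first. Gad1, which makes GABA, was at 0 in the 5 pyramidal cells and above 0 in every GABAergic cell other than 1 purified cell, and the 7 measured GABAergic markers summed to at least 21196 in every purified cell. Slc17a7, the vesicular glutamate transporter, was above 0 in 4 of 5 pyramidal cells and at 0 in all GABAergic cells. Pyramidal cells 3 and 4 held oligodendrocyte transcripts: the 10 markers of that type summed to 324915 and 103570 in them and to at most 1604 in the other pyramidal cells. In the OCM-treated, purified and glia-cultured GABAergic groups the highest sums were 9.16, 857 and 1352. Pyramidal cell 3 also had the highest sum of the 7 measured astrocyte markers, 62393, and of the 10 microglia markers, 26818 against at most 123 in any other cell. Its sum of the 11 pan-neuronal markers, 6029, was the lowest.

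Of the 189 values of these genes, 151 were above 0, and 148 were above 0 with each cell thinned to the shallowest one. Nefl, Ina and Stmn2 were above 0 in all 21 cells, Mapt in 20, Nefm and Gap43 in 18, Nefh in 14, Map2 in 11 and Dcx in 7. Pyramidal cells had 4 to 8 of the genes above 0, OCM-treated cells 7 to 9, purified cells 6 to 8 and glia-cultured GABAergic cells 7 to 9. Of the values above 0, that of Ina in pyramidal cell 1, those of Map2 in pyramidal cell 3 and glia-cultured GABAergic cell 4, and that of Dcx in pyramidal cell 4 rest on 3 reads or fewer.

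**Figure D1:**
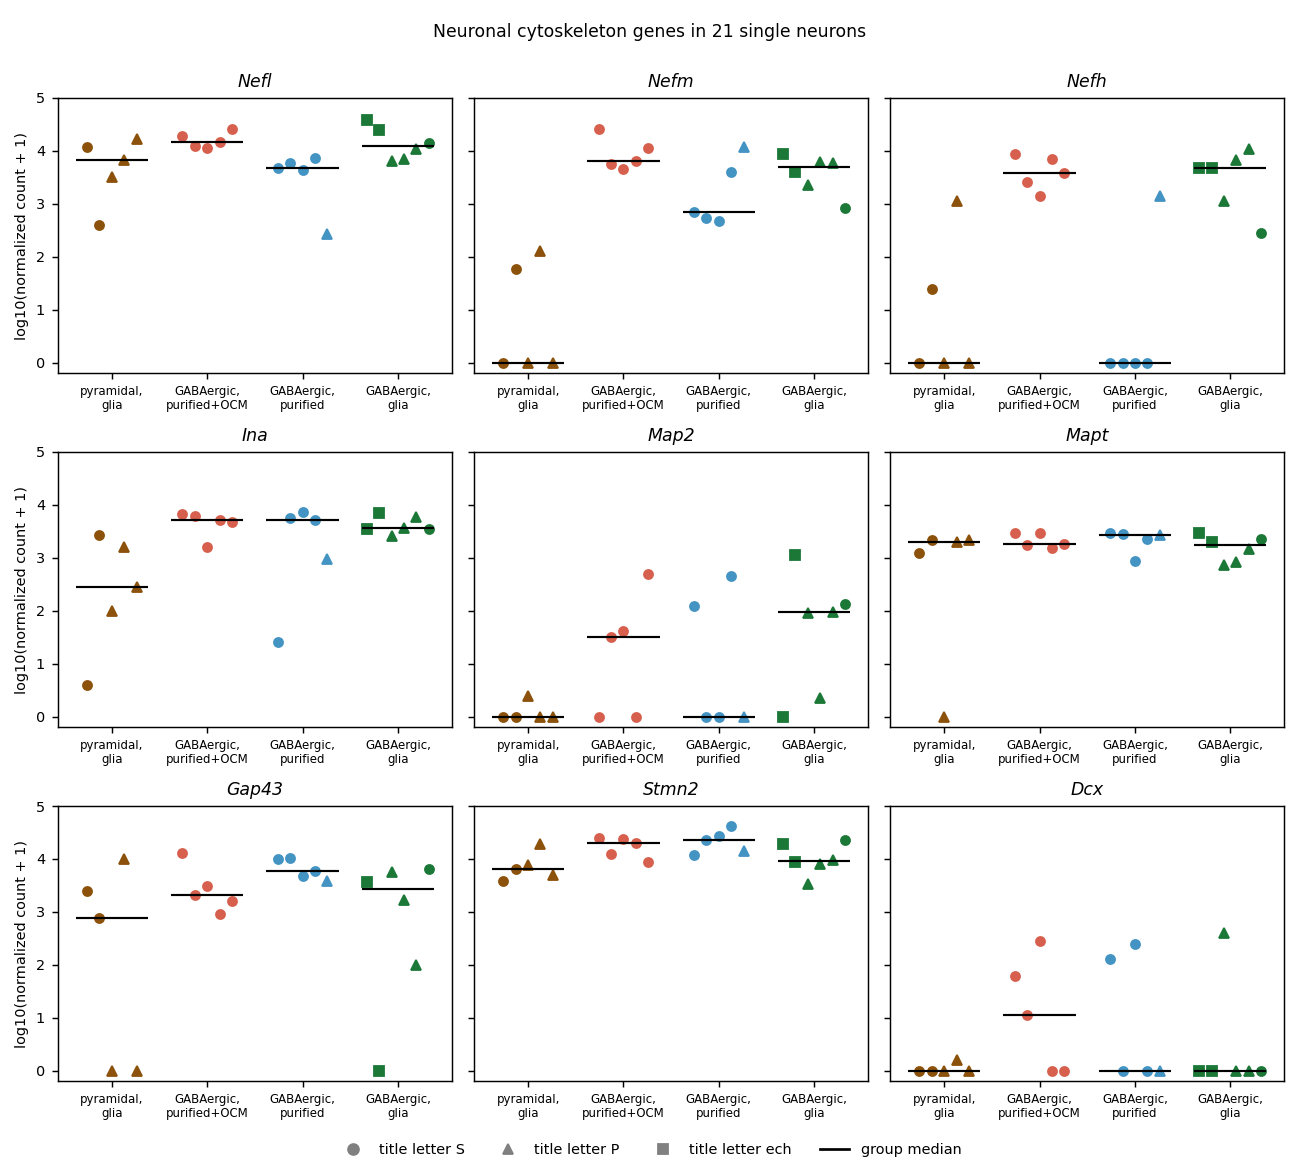
Each point is 1 cell, with log10 of the normalized count plus 1 on the y axis, the 4 groups on the x axis and the marker shape giving the title letter; black lines are group medians. Nefh lies at 0 in 4 of 5 purified cells and above 0 in all OCM-treated and glia-cultured GABAergic cells, and Nefm lies at 0 or at 129 or less in the pyramidal cells.

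Nefl, the light chain on which the polymer is built (ID GSRG0011029, chromosome 15, 44799371 to 44803251 in rn6), was detected in every cell. Its normalized count was 11993, 395, 3282, 6798 and 17091 in pyramidal cells 1 to 5. In OCM-treated cells 1 to 5 it was 19233, 12611, 11224, 14993 and 26077. Purified cells 1 to 5 had 4774, 6030, 4351, 7195 and 272, whereas glia-cultured GABAergic cells had 6459 at the lowest, 12352 at the median and 38514 at the highest. Every OCM-treated cell thus lay above every purified cell, and only 1 purified cell lay above the lowest glia-cultured GABAergic cell. By medians the order ran from OCM-treated over glia-cultured GABAergic and pyramidal to purified cells; neighbours in it overlapped.

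Nefm, the medium chain, lies on the chromosome of Nefl, 15 (GSRG0011694, 44855304 to 44860608). It was at 0, 59.0, 0, 129 and 0 in pyramidal cells 1 to 5. OCM-treated cells had 25663, 5715, 4643, 6467 and 11139. The purified cells had 714, 529, 480, 3982 and 11949, and the glia-cultured GABAergic cells had 844 at the lowest, 4979 at the median and 8814 at the highest. Pyramidal cells lay below all other cells of the series. Purified cell 5, the 1 purified cell titled P, was high for Nefm while it was the lowest of all 21 cells for Nefl, and without it every OCM-treated cell exceeded every purified cell.

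Nefh, the heavy chain (GSRG0010772, chromosome 14, 85181572 to 85191557), joins neurofilaments late in development and carries a long phosphorylated tail. It was at 0, 23.6, 0, 1154 and 0 in pyramidal cells 1 to 5, and at 8705, 2641, 1438, 7118 and 3887 in OCM-treated cells 1 to 5. Purified cells 1 to 4 were at 0 and purified cell 5 was at 1386. The limits that 3 reads set in those 4 cells were 3.71, 4.07, 8.22 and 5.16. Glia-cultured GABAergic cells had 276 at the lowest, 4818 at the median and 10714 at the highest. OCM-treated cells thus lay within the range of glia-cultured ones, while purified and pyramidal cells were mostly at 0.

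Ina, encoding alpha-internexin (GSRG0002246, chromosome 1, 266782835 to 266794389), was at 2.96, 2742, 99.7, 1587 and 279 in pyramidal cells 1 to 5. It was at 6697, 6276, 1608, 5240 and 4673 in OCM-treated cells and at 24.7, 5634, 7457, 5110 and 949 in purified cells. Glia-cultured GABAergic cells had 2535 at the lowest, 3590 at the median and 7044 at the highest. The 3 GABAergic groups overlapped, and 4 of 5 pyramidal cells lay below the lowest glia-cultured GABAergic cell.

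Mapt, encoding tau (GSRG0006005, chromosome 10, 92288910 to 92386513), overlapped between all groups. It was at 1227, 2176, 0, 1989 and 2147 in pyramidal cells 1 to 5. OCM-treated cells had 2989, 1767, 3000, 1511 and 1798, purified cells had 2986, 2847, 886, 2255 and 2734, and glia-cultured GABAergic cells had 747 at the lowest, 1736 at the median and 2966 at the highest. The single cell at 0 was pyramidal cell 3, 1 of those that held oligodendrocyte transcripts.

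Map2 (GSRG0032355, chromosome 9, 73334896 to 73459574) was sparse. Among pyramidal cells only cell 3 had a value above 0, 1.47. It was at 0, 30.5, 40.3, 0 and 490 in OCM-treated cells and at 122, 0, 0, 458 and 0 in purified cells. Glia-cultured GABAergic cells had 0 at the lowest, 92.2 at the median and 1118 at the highest. No group lay clear of another. The table has a further row named Map2 that overlaps it, at 0 in every cell, while 0 rows overlap any of the other 8 genes.

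Gap43 (GSRG0007177, chromosome 11, 58624198 to 58717914) was at 2531, 773, 0, 10057 and 0 in pyramidal cells 1 to 5. It was at 12978, 2070, 3139, 901 and 1638 in OCM-treated cells and at 10168, 10358, 4740, 5948 and 3802 in purified cells. Among glia-cultured GABAergic cells the lowest was at 0, the median 2701 and the highest 6462. The purified group had the highest median and no cell under 3802, whereas 4 of 5 OCM-treated cells lay below that value; the groups still overlapped.

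Stmn2 (GSRG0016018, chromosome 2, 95424253 to 95471998) was above 0 in every cell. It was at 3878, 6541, 7799, 19360 and 5070 in pyramidal cells 1 to 5. OCM-treated cells had 24351, 12389, 23440, 20367 and 8584, purified cells had 11659, 22505, 27086, 42050 and 14192, and glia-cultured GABAergic cells had 3426 at the lowest, 9241 at the median and 22495 at the highest. Medians ran from purified over OCM-treated and glia-cultured GABAergic to pyramidal cells, and neighbours overlapped throughout.

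Dcx (GSRG0034812, chromosome X, 115098675 to 115175299) was detected in the fewest cells. Its 1 pyramidal cell above 0 was at 0.624. OCM-treated cells 1 to 3 were at 60.4, 10.2 and 284, purified cells 1 and 3 at 131 and 247, and 1 glia-cultured GABAergic cell at 399. The other cells were at 0, so no order of the groups can be read from it.

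Pyramidal neurons were first set beside GABAergic neurons, both grown with glia. Nefm averaged 37.6 ± 57.2 in pyramidal cells and 4688 ± 2921 in GABAergic cells (SD, 5 and 6 cells), Nefh averaged 235 ± 513 and 4735 ± 3796, and Ina averaged 942 ± 1193 and 4347 ± 1717. Nefl was closer, at 7912 ± 6710 in pyramidal and 16908 ± 12487 in GABAergic cells. Stmn2 averaged 8530 ± 6233 in pyramidal and 11959 ± 7296 in GABAergic cells.

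As differences of the group means of log2(normalized count + 1), Nefm was at -9.26, Nefh at -8.52, Map2 at -4.98 and Ina at -4.23. Of the 8 genes measured (above 0 in at least 3 of the 11 cells; Dcx was not), 7 were at least 2-fold lower in pyramidal cells and 0 at least 2-fold higher. Over all 6571 symbols measured, 64.2% were at least 2-fold lower and 13.3% at least 2-fold higher, so the count of 7 is near that background. The median of the 8 genes was -3.23, beside -2.05 over all symbols. Over the 358 symbols above 0 in every cell of both groups the median was -0.015, with 63 at least 2-fold lower and 52 higher. Cells of the 2 groups did not overlap for 1 gene, Nefm, against 1.84% of all symbols lower without overlap and 0.243% higher. Among cells titled P, 3 against 3, Nefl was at -0.12, Nefm at -9.76, Nefh at -8.70 and Ina at -3.42, the last 3 without overlap, whereas Stmn2 was at 0.51. For Nefh the gap was narrow: the highest pyramidal cell was at 1154 and the lowest GABAergic cell at 1156. With cells titled S, 2 against 1, Nefm was at -6.77 and Nefh at -5.80. Without pyramidal cells 3 and 4, Nefm was at -9.88 and Nefh at -9.93, so the differences of these genes were as large without the cells that held oligodendrocyte transcripts.

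Mapt turned from -1.89 to 0.28 without pyramidal cell 3. Nefl went to -0.73 without pyramidal cell 2, the cell of lowest depth, and Gap43 to -0.51 without pyramidal cell 3 or 5, to -3.33 and -3.83 without pyramidal cells 1 and 4, and to -4.03 without GABAergic cell 2. Ina was at -2.79 without pyramidal cell 1.

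**Figure D2:**
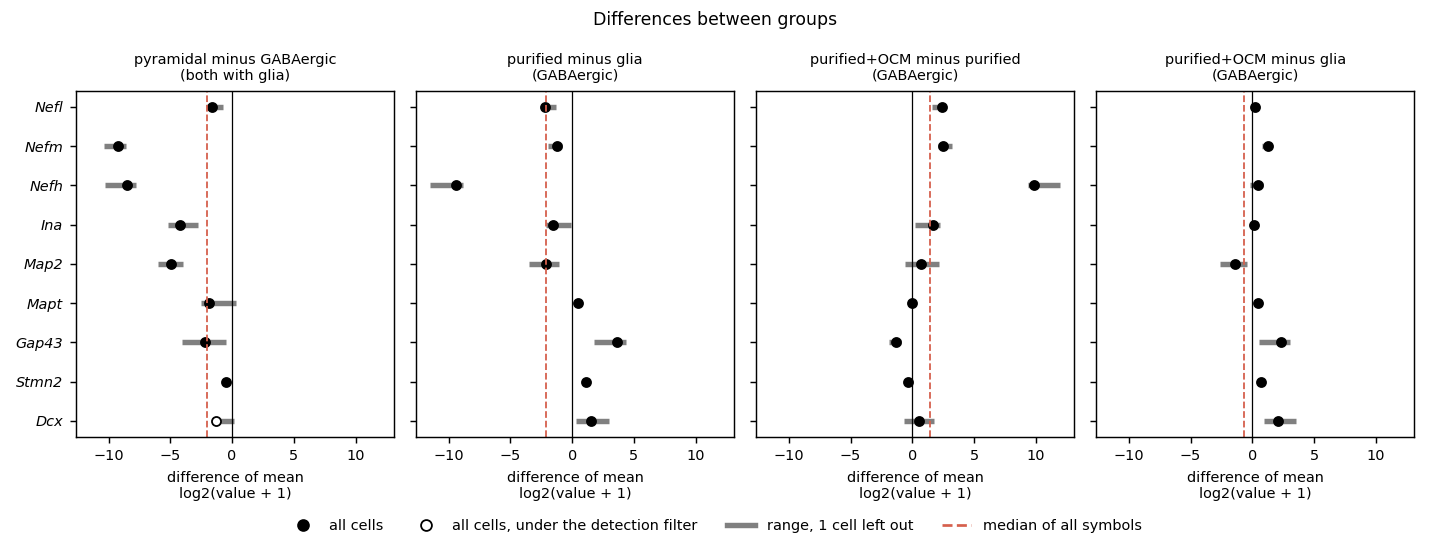
Points are differences of group means of log2(normalized count + 1), first group minus second, for the 9 genes in each comparison; grey bars span the values with any 1 cell left out, the open point is a gene under the detection filter, and the dashed line is the median of all symbols measured. Nefh stands at -9.39 for purified minus glia, at 9.85 for OCM-treated minus purified and at 0.46 for OCM-treated minus glia.

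The comparison of purified with glia-cultured GABAergic neurons asks what differed without glia. Nefh was above 0 in 1 of 5 purified cells and in all glia-cultured cells. Nefl averaged 4524 ± 2625 in purified and 16908 ± 12487 in glia-cultured cells (SD, 5 and 6 cells), and Nefh 277 ± 620 and 4735 ± 3796. Gap43 averaged 7003 ± 3072 in purified and 2931 ± 2771 in glia-cultured cells, and Stmn2 23499 ± 12091 and 11959 ± 7296.

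On the log2 scale Nefh differed by -9.39, Nefl by -2.18, Gap43 by 3.60 and Stmn2 by 1.07. Of the 9 genes 5 were at least 2-fold lower, near the 64.4% of all 6302 symbols, and 3 (Gap43, Stmn2 and Dcx) at least 2-fold higher, against 11% of all symbols. The median of the 9 was -1.26, beside -2.13 over all symbols. Nefl was close to the latter, but most of those symbols were at 0 in some cells. Over the 541 symbols above 0 in every cell of both groups, as Nefl was, the median was -0.18. Of these, 78 were at least 2-fold lower and 43 higher. Cells overlapped for every gene, with 1.51% of all symbols lower and 0.159% higher without overlap. Purified cell 5 and the letters mattered here. Among cells titled S, 4 against 1, Nefl was at -1.35, Nefh at -8.11, Nefm at 0.13, Gap43 at 0.19 and Stmn2 at 0.06, so Gap43 and Stmn2 were near 0 within that letter. Among cells titled P, 1 against 3, Nefl was at -4.85, Nefh at -1.65, Nefm at 1.44, Gap43 at 1.95 and Stmn2 at 1.14. Each rests on a single cell on one side and cannot show whether a gene holds within a letter.

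Gap43 was at 1.79 without glia-cultured cell 2, Nefl at -1.32 without purified cell 5, and Ina went to -0.11 without purified cell 1. Nefm lay at -0.98, -0.87 and -0.84 without purified cells 1, 2 and 3. Dcx was at 0.32 without purified cell 3 and farther above 0 without glia-cultured cell 3, the only one there with a value, and Map2 ranged from -3.50 without purified cell 4 to -1.10 without glia-cultured cell 2. Stmn2 fell under 2-fold, to 0.99, 0.83 and 0.76, without purified cell 3, purified cell 4 or glia-cultured cell 3, and to 0.47 with cells scaled to 1 upper quartile. Snap25, a pan-neuronal gene of vesicle fusion, was likewise lower, at 9797 ± 3427 in purified and 32974 ± 6442 in glia-cultured cells, and its part in these differences was not tested.

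The comparison in the study's title sets OCM-treated beside untreated purified GABAergic neurons. All 3 neurofilament chains were higher with OCM. Nefh averaged 4758 ± 3059 in OCM-treated and 277 ± 620 in purified cells (SD, 5 cells each), Nefl 16828 ± 5998 and 4524 ± 2625, and Nefm 10726 ± 8711 and 3531 ± 4933. Tau stayed close, at 2213 ± 722 in OCM-treated and 2341 ± 859 in purified cells, while Gap43 averaged 4145 ± 5004 and 7003 ± 3072.

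The log2 differences were 9.85 for Nefh, 2.49 for Nefm, 2.42 for Nefl, 1.66 for Ina, -0.02 for Mapt and -1.30 for Gap43. Of the 9 genes 4 were at least 2-fold higher and 1 at least 2-fold lower, whereas over all 5143 symbols measured 56% were at least 2-fold higher and 16.4% lower. The count of higher genes is thus near the background, and the median of the 9 genes, 0.70, stood beside 1.40 over all symbols. Over the 563 symbols above 0 in every cell of both groups the median was 0.06, with 55 at least 2-fold higher and 51 lower. Nefl and Nefh did not overlap between the groups; over all symbols 0.817% were higher without overlap and 0.233% lower. Nefl kept this under scaling to 1 total, scaling to 1 upper quartile and thinning. Nefh kept it under the upper quartile and thinning but not with cells scaled to 1 total, where the lowest OCM-treated cell was at 1531 and the highest purified cell at 1654. Among cells titled S, 5 against 4, Nefl was at 1.55, Nefm at 3.23 and Nefh at 11.93, each without overlap.

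Ina went to 0.22 without purified cell 1, Nefl to 1.55 without purified cell 5, and Gap43 to -0.91 without OCM-treated cell 4. Map2, at 0.70 with all cells, ranged from -0.57 without OCM-treated cell 5 to 2.12 without purified cell 4, and Dcx, at 0.52, from -0.64 without OCM-treated cell 3 to 1.75 without purified cell 3, so neither kept a direction. Gap43 was at -0.68 and Stmn2 turned from -0.36 to 0.26 when cells were scaled to 1 upper quartile. Nefh followed the number of detected genes: across the 21 cells Pearson's r of log2 Nefh with the number of genes above 0 after thinning was 0.65 and Spearman's rho 0.70, and for Nefl both were 0.23. OCM-treated cells had 3740 to 5660 genes above 0 after thinning and purified cells 2545 to 3801; the part of this in the Nefh difference was not tested.

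OCM-treated cells were lastly set beside glia-cultured GABAergic cells, from which they also differ by the antimitotic treatment. Nefl, Nefh and Ina had close averages: Nefl was at 16828 ± 5998 in OCM-treated and 16908 ± 12487 in glia-cultured cells (SD, 5 and 6 cells), Nefh at 4758 ± 3059 and 4735 ± 3796, and Ina at 4899 ± 2008 and 4347 ± 1717. The 2 highest glia-cultured cells for Nefl, at 38514 and 24679, were the 2 titled ech, and the rest ran from 6459 to 13991. Nefm averaged 10726 ± 8711 in OCM-treated and 4688 ± 2921 in glia-cultured cells.

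The log2 differences were 0.23 for Nefl, 0.46 for Nefh, 0.11 for Ina and 1.24 for Nefm. Of the 9 genes 3 were at least 2-fold higher, against 20.3% of 6772 symbols, and 1 at least 2-fold lower, against 44.4%. Their median was 0.48, beside -0.72 over all symbols and -0.17 over the 939 symbols above 0 in every cell of both groups. All genes overlapped, with 0.177% of symbols higher and 0.517% lower without overlap. Nefm was at 0.85 without OCM-treated cell 1 and at 0.81 without glia-cultured cell 6, Gap43 went from 2.30 to 0.49 without glia-cultured cell 2, and Dcx from 2.07 to 0.92 without OCM-treated cell 3 and to 3.52 without glia-cultured cell 3. Map2, at -1.38, was at -2.65 without OCM-treated cell 5, at -0.42 without OCM-treated cell 1 or 4 and at -0.40 without glia-cultured cell 2. Against the single glia-cultured cell titled S, Nefm was at 3.36, Nefh at 3.82 and Gap43 at -1.30. The comparisons are not independent: Nefh at -9.39 and at 9.85 rests in both cases on the same 5 purified cells, and 3 of the 4 comparisons use the same 6 glia-cultured cells.

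Ratios of neurofilament genes within a cell hardly depend on its scaling where both genes are well above 0. Where the first gene is at 0, as for the medians of -11.7 and -12.2, the ratio only restates the Nefl level and moves with the scaling and the added 1. Ratios were compared between cells for 1 pair of genes at a time, since the genes differ in length. For Nefm over Nefl the log2 ratio of (value + 1) had a median of -11.7 in pyramidal cells (-14.1 to -2.72), of -1.21 in OCM-treated cells (-1.27 to 0.42), of -2.74 in purified cells (-3.51 to 5.45) and of -1.82 in glia-cultured GABAergic cells (-4.05 to -0.18). Pyramidal cells had the lowest median, and OCM-treated cells lay close to each other apart from cell 1. The value of 5.45 is purified cell 5.

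For Nefh over Nefl the median was -11.7 in pyramidal cells, -2.26 in OCM-treated cells (-2.96 to -1.07), -12.2 in purified cells (-12.8 to 2.34) and -2.42 in glia-cultured GABAergic cells (-5.66 to 0.00014). OCM-treated cells fell inside the glia-cultured range, and 4 purified cells fell below it, since their Nefh was at 0. For Ina over Nefl the medians were -5.03 in pyramidal cells, -1.52 in OCM-treated cells, -0.098 in purified cells and -1.58 in glia-cultured GABAergic cells, and all groups overlapped. Ratios to Map2 followed whether Map2 was detected: Dcx and Map2 were both above 0 in 0, 2, 1 and 1 cells of these groups in the same order, so their ratio is not read. Gap43 over Map2 ranged from -10.1 to 13.7 over all cells and Mapt over Map2 from -1.30 to 11.5.

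**Figure D3:**
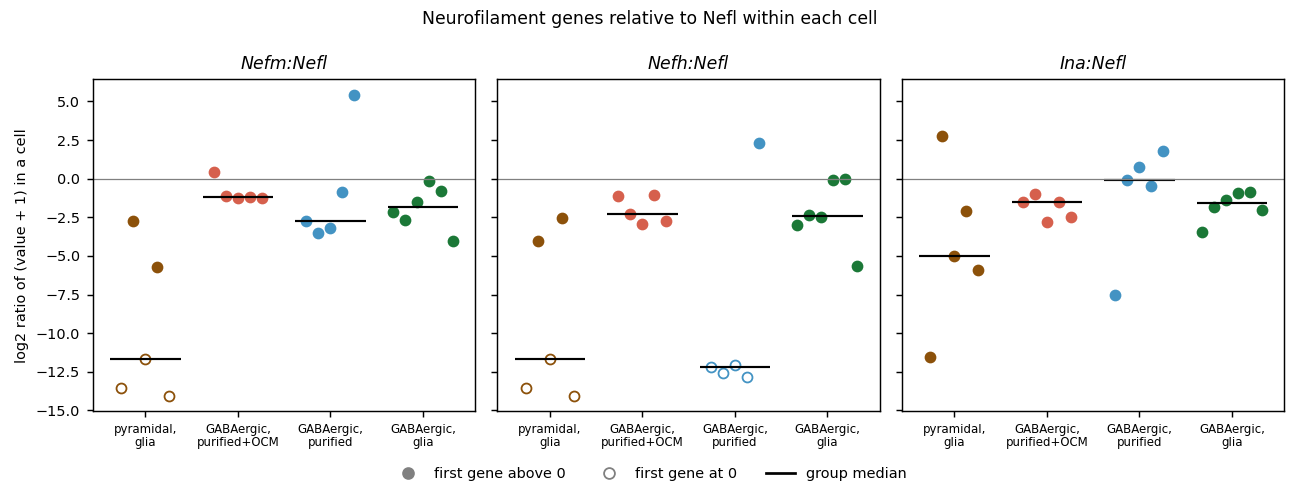
Each point is the log2 ratio of (normalized count + 1) of 2 neurofilament genes in 1 cell, by group; open points are cells where the first gene is at 0 and black lines are group medians. For Nefh over Nefl, the 5 OCM-treated cells lie between -2.96 and -1.07, and 4 of 5 purified cells, with Nefh at 0, lie between -12.8 and -12.1.

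Among the genes themselves, Nefm and Nefh varied together most, with Pearson's r of 0.71 and Spearman's rho of 0.79 on log2 values over 21 cells, and 0.78 and 0.72 over the 16 GABAergic cells. Nefl followed Nefm less (0.16 and 0.39 over 21 cells) and Nefh less (0.27 and 0.50). For Nefh and Gap43 the values were 0.11 and -0.20 over 21 cells and -0.42 and -0.61 over the GABAergic cells. Gap43 and Stmn2 were at 0.44 and 0.58 over 21 cells. These points share depth, detection and group, cells at 0 weigh heavily in r, and the values are descriptions.

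Of the 1888 other symbols with a mean of at least 50 and above 0 in at least 14 cells, those with the highest Pearson's r to Nefh over 21 cells were Cdh13 (0.94), Ntm (0.94) and Phlda1 (0.86). For Nefl they were Ppp2ca (0.85), Phyhipl (0.81) and Arpc5l (0.78), for Nefm the merged row Csnk2b // Ly6g5b, Nop56 and RGD1303003 (0.89 to 0.90), and for Ina Astn1, Hspa9 and Mcts1 (0.82 to 0.83). Mapt was most like Usmg5, Bex3 and Gng3, each at 0.96, and Gap43 like Msmo1, Ntrk2 and Rps15a (0.80 to 0.83). For Stmn2 the highest were Cyp51, LOC297756 and Cdc16 (0.68 to 0.71). Shared cells at 0 set part of these values.

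The wider cytoskeleton was described with 7 further lists, beside the background shares above. Of all symbols 64.2% were at least 2-fold lower and 13.3% higher in the pyramidal comparison. The shares were 64.4% and 11% in purified against glia-cultured cells. With OCM, 44.4% were lower and 20.3% higher against glia-cultured cells, and against purified cells 56% were higher and 16.4% lower. Without overlap, at most 1.84% of all symbols were lower and at most 0.817% higher in any comparison. Other microtubule-associated proteins numbered 19 in the table. With OCM against purified cells 4 of 14 measured were at least 2-fold higher and 4 lower, with a median of -0.18. Map1a, which coats microtubules of mature neurites, was at 2873, 3221, 1883, 5698 and 7573 in OCM-treated cells and at 213, 2.71, 35.6, 1634 and 1112 in purified cells. It was the 1 gene of the list without overlap, with a difference of 4.75. Its relative Map1b, named after its values were seen and known from growing axons, averaged 17401 ± 6100 in OCM-treated and 20894 ± 13527 in purified cells. Between purified and glia-cultured cells 11 of 18 were lower and 1 higher (median -1.71), and Map1s was at 0 in all purified cells and at 215 to 4285 in glia-cultured ones. In the pyramidal comparison 12 of 18 were lower and 2 higher (median -3.38), and with OCM against glia-cultured cells 12 of 18 were lower and 0 higher (median -1.36). Map1s had the largest difference in both, -5.83 and -5.89.

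Of the other stathmins, Stmn1, a microtubule-destabilizing protein of young cells, was at 4788, 4619, 5561, 5074 and 1408 in OCM-treated cells and at 14204, 12803, 7199, 33910 and 7201 in purified cells. All OCM-treated cells lay below all purified cells, with a difference of -1.70, beside 0.233% of all symbols lower without overlap. Stmn1 averaged 15063 ± 11008 in purified and 4215 ± 5138 in glia-cultured cells, with overlap and a difference of 2.27. The 1 glia-cultured cell titled S was at 14440, inside the purified range. The purified cell titled P, at 7201, lay above the glia-cultured cells titled P, at 760 to 3954. Each letter thus rests on a single cell on one side. Stmn3 was at 32238 to 38841 in OCM-treated cells and at 18006 to 29974 in glia-cultured ones, without overlap but with a difference of only 0.54. Of all symbols 0.177% were higher without overlap there. In the pyramidal comparison Stmn4 had the largest difference, -3.93, with 1 of 3 stathmins higher and 2 lower. At least 2-fold, 1 of 3 was higher and 1 lower in purified against glia-cultured cells, 1 of 2 lower in OCM-treated against purified cells, and 1 of 3 lower in OCM-treated against glia-cultured cells.

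Growth cone and neurite proteins had 12 measured members in the comparison of purified with glia-cultured cells. There 6 were at least 2-fold higher, against 11% of all symbols, and 2 lower, against 64.4%, and the median was 0.97. The 6, named after their values were seen, were Marcks, Marcksl1, Dpysl2, Dpysl3, Dpysl4 and Dpysl5. Dpysl4, a collapsin response mediator, had a difference of 2.75 and averaged 4274 ± 2163 in purified and 1874 ± 1584 in glia-cultured cells; the members lower were Enah and Dbn1, both actin-binding proteins. With OCM against purified cells 1 of 11 was higher and 4 lower (median -0.81), Rufy3 most at -4.39. Cells overlapped for every gene of this list in each comparison. The other comparisons had 3 higher and 7 lower of 12 (pyramidal, median -2.75) and 4 higher and 4 lower of 12 (OCM against glia, median 0.48), with Enah at -6.55 and -6.45.

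Tubulins, the subunits of microtubules, had 8 members in the table. Tuba1a was at 98504, 142037, 68870, 99779 and 63305 in purified cells and at 25716 to 53524 in glia-cultured ones, higher without overlap by 1.30. Of all symbols 0.159% were higher without overlap there. With OCM Tuba1a was at 45200 to 79618 and overlapped both. The alpha and beta tubulin genes have near-identical copies between which reads can be split, so single members are uncertain. Over the list, 3 of 8 were higher and 1 lower in purified against glia-cultured cells (median 0.07), 1 and 1 in OCM-treated against purified cells (0.23), 3 and 0 in OCM-treated against glia-cultured cells (0.57), and 1 and 3 in pyramidal against GABAergic cells (-0.29). The shares of all symbols higher and lower, in the same order, were 11% and 64.4%, 56% and 16.4%, 20.3% and 44.4%, and 13.3% and 64.2%. In the last 3 of these comparisons the largest differences were Tuba4a at 2.31, Tubb5 at 2.20 and Tubb3 at -5.50.

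Kinases and phosphatases that act on tau, MAPs or neurofilaments were lower in purified against glia-cultured cells for 14 of 15 and higher for 0, with Ppp2r2c at -7.32. Of all symbols 64.4% were lower there, and the list median, -2.01, was near the -2.13 of all symbols. In OCM-treated against purified cells 6 were higher and 3 lower (median 0.23), with Ppp2r2b at 6.38. In OCM-treated against glia-cultured cells 9 were lower and 1 higher (median -1.73), and Cdk5r1, the activator of Cdk5, was at 142 to 257 in OCM-treated and at 325 to 1759 in glia-cultured cells, without overlap. Pyramidal against GABAergic cells had 10 lower and 2 higher (median -2.41), with Cdk5 at -5.88.

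The lists of spectrins, ankyrins and adducins and of other intermediate filaments and linkers were measured in few members. Of all symbols 64.2% were lower in the pyramidal comparison and 64.4% in purified against glia-cultured cells. The first list had 5 of 6 lower in the pyramidal comparison (median -2.23) and 4 of 5 in purified against glia-cultured cells (-2.12). It had 1 higher and 1 lower of 4 in OCM-treated against purified cells (0.09), and 1 higher and 3 lower of 5 in OCM-treated against glia-cultured cells (-1.40). Add2 had the largest difference in the pyramidal comparison, -4.23, Sptbn1 in OCM-treated against purified cells, 2.16, and Add1 in OCM-treated against glia-cultured cells, -2.95. The second list had 3 members measured in the pyramidal comparison, 1 higher and 2 lower (-3.12). Vim, the filament of astrocytes and progenitors, averaged 4757 ± 10369 in pyramidal cells, with 23306 in the highest, and 109 ± 123 in GABAergic cells. All 3 measured were lower in purified (median -3.88, Plec at -4.14) and in OCM-treated cells (-2.73, Lmna at -3.11) against glia-cultured ones, and the 1 measured in OCM-treated against purified cells, Lmna, was at -0.55.

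**Figure D4:**
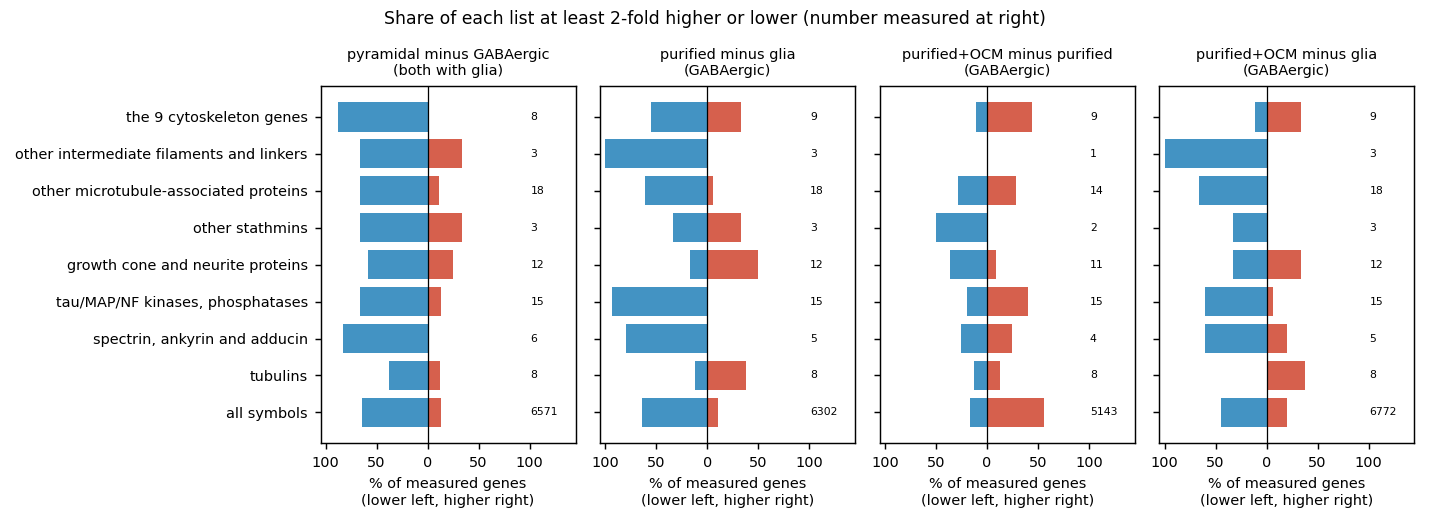
Bars give the percentage of the measured genes of each list at least 2-fold lower (left, blue) or higher (right, red) in the first group of each comparison, with the number of genes measured at the right and all symbols in the bottom bar. In purified minus glia, the growth cone list has 6 of 12 genes higher, beside 11% of all symbols.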

How the data were processed

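RNA of single patched neurons was amplified with SMART-Seq v4 and sequenced as Nextera XT read pairs, per the labels' protocols. The submitters' processing notes list STAR 2.4.0, SAMtools, Picard, FastQC, DESeq2 and rn6. How reads were counted, with which annotation and on which strand, is not given in the sources, so reads of a gene and its antisense partner may not be told apart. Each deposited value is a signal of 0 or more, which the authors named DESeq2-normalized counts. All 34976 rows were read, 18376 of them without a symbol, and 0 columns lacked a sample. For a symbol with several rows the one with the highest mean was kept, which left out 355 rows. In each cell 100% of values were within 0.05 of whole multiples of 1 step, which gave back reads and depth. No count test was run on them, since cells of 1 group share no named animal or culture and are not replicates.

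Differences are of group means of log2(value + 1) over symbols above 0 in at least 3 cells of both groups together, and a difference of 1 counts as 2-fold. They understate low genes and follow detection where cells are at 0. The script was tested on simulated counts in which all cells of a group shared the same mean for a gene. That test does not cover genes at 0 in only part of a group's cells. Named genes are the 9 members, the 3 symbols most correlated with each member detected in at least 14 cells, and, per list and comparison, up to 3 genes without overlap or else the largest difference; 1 gene so chosen is not reported here, and genes named after their values were seen (Map1b and the growth cone genes) are marked as such. Members and lists were chosen with earlier results of these data known. Of 151 symbols in all lists 140 are in the table, and the others are not analysed here. Alternatives are pseudocounts of 10 and 0.1, scaling to 1 total or upper quartile, thinning, other filters, the ratio of means, medians, a 4-fold threshold, title letter S, and leaving out cells. Title letter P, and lack of overlap under each setting, were added after seeing the data. Computation used numpy 2.4.6, scipy 1.17.1 and pandas 2.3.3 under Python 3.11.15, and plots matplotlib 3.10.9.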

Additional observations from a re-analysis of the deposited data

Results flagged for a closer look

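The 9 genes in 4 groups make 36 sets of cells. In 12 of them the highest cell stood apart from the rest of its group by Dixon's criterion at 95%. That criterion flags about 1 in 20 sets of normally distributed values by chance, a rate that need not hold for counts with cells at 0. Many of the 12 flagged sets are cells at or near 0 with 1 cell above. Nefh was at 1154 in pyramidal cell 4 and at 1386 in purified cell 5. Map2 was at 1.47 in pyramidal cell 3, at 490 in OCM-treated cell 5, at 458 in purified cell 4 and at 1118 in glia-cultured GABAergic cell 2. Gap43 was at 10057 in pyramidal cell 4 and at 12978 in OCM-treated cell 1. Stmn2 was at 19360 in pyramidal cell 4. Dcx was at 0.624 in pyramidal cell 4, at 284 in OCM-treated cell 3 and at 399 in glia-cultured GABAergic cell 3. Pyramidal cell 4 was the one that stood apart for 4 of the genes. It was the deepest pyramidal cell, at 22669537 reads, and 1 of the 2 that held oligodendrocyte transcripts.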

How the results depend on the processing

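No paired analysis was possible because the cells carry no replicate number in the labels and no test was made. Scaling to 1 upper quartile moved the median of all symbols from -2.05 to -2.56 in the pyramidal comparison, from -2.13 to -2.54 for purified against glia-cultured cells and from 1.40 to 1.79 for OCM-treated against purified cells. Medians and counts of the 9 genes, within-cell ratios and the detection total gave 162 results under settings that left out no single cell. Of these, 138 kept their size, and the 24 that moved were all medians or counts of the 9 genes. A median or ratio kept its size if it moved by less than the SD between cells. By that rule a median under 2-fold could keep its size and still turn sign. In the pyramidal comparison the count of lower genes, 7, became 2 with genes above 0 in every cell (3 measured) and 4 with cells titled S. For purified against glia-cultured cells the median of -1.26 became -0.18 with the ratio of means, 0 with medians, -0.16 with cells titled S and -0.25 with cells titled P. The 3 higher and 5 lower genes became 1 and 3 with genes above 0 in every cell (5 measured), with the ratio of means and at 4-fold, and 0 and 3 with cells titled S (7 measured). In the pyramidal comparison the median of -3.23 lay between -3.96 (upper quartile) and -1.61 (above 0 in every cell). For OCM-treated against purified cells the median of 0.70 became 1.65 with medians, 1.35 with a pseudocount of 0.1, 0.14 with a pseudocount of 10, 0.064 with cells titled S and -0.048 with the ratio of means, so its sign depends on the setting, and the 1 lower gene became 0 with scaling to 1 upper quartile, the ratio of means and 4-fold. For OCM-treated against glia-cultured cells the median of 0.48 became 0.17 with the ratio of means and 0.20 with cells titled S, and the 3 higher genes became 1 with genes above 0 in every cell (6 measured) and with the ratio of means. The 1 lower gene became 0 with a pseudocount of 10, with genes above 0 in every cell and at 4-fold, and 2 with cells titled S. Fewer genes were measured under the filter and fewer cells under the letters, and the cause of these changes and of the others was not tested.

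With any 1 cell left out, the medians ranged from -4.37 to -2.73 (pyramidal), -1.60 to -0.55 (purified against glia-cultured), 0.064 to 2.12 (OCM-treated against purified) and 0.28 to 0.70 (OCM-treated against glia-cultured). Counts of higher genes ranged in the same order over 0, 1 to 3, 4 to 6 and 2 to 3, and counts of lower genes over 5 to 7, 3 to 5, 0 to 1 and 0 to 1. Of the differences of at least 2-fold, these turned sign: Mapt in pyramidal cells to 0.21 with medians, 0.24 without cells 3 and 4 and 0.28 without cell 3 (-2.49 to 0.28 with any 1 cell left out); in purified against glia-cultured cells Ina to 0.51 with medians and Nefm to 0.13 with cells titled S and 1.44 with cells titled P; and in OCM-treated against glia-cultured cells Gap43 to -0.28 with medians and -1.30 with cells titled S. Smaller differences turned sign too: Stmn2 to 0.51 in the pyramidal comparison (cells titled P), to 0.26 in OCM-treated against purified cells (upper quartile) and to -0.44 in OCM-treated against glia-cultured cells (cells titled S), and Mapt to -0.16 (cells titled S) and -0.098 (upper quartile) in purified against glia-cultured cells. Mapt, Map2 and Dcx in OCM-treated against purified cells and Nefl, Nefh, Ina and Mapt in OCM-treated against glia-cultured cells also did so under some settings. The detection count was 151, and 148 after thinning. With a pseudocount of 10 the medians of the within-cell ratios moved by less than the SD between cells of a group. That SD is wide where some cells are at 0, so this says little for Nefh over Nefl in purified cells. Map2 and Dcx are the least certain, since they were above 0 in the fewest cells: 11 and 7, and 10 and 6 after thinning.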
